A study of Mus musculus with 18 samples.

Results

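Adding isoliensinine to doxorubicin-treated mouse aortic smooth muscle cells was compared with doxorubicin alone by RNA sequencing, using 6 of the 18 libraries of the series: 3 of cells given isoliensinine with doxorubicin (D_I) and 3 of cells given doxorubicin (Dox). The groups are the D_I and Dox columns of the read count table, assigned by label. They were fitted on these 6 libraries alone because, in earlier results of these data, they varied least among the libraries of the series, so that choice rests on the data. The remaining 12 libraries, used here only where named, were cells given isoliensinine without an inducer (B_I), untreated cells (Blank), cells given isoliensinine with hydrogen peroxide (H_I) and cells given hydrogen peroxide (H2O2), 3 libraries each. All came from MOVAS, an immortalised mouse aortic smooth muscle line, so the model is 1 cell line in culture. The study calls its replicates biological and asks, by its title, whether isoliensinine helps natural killer (NK) cells clear senescent smooth muscle cells. The D_I label names only isoliensinine, and its doxorubicin was read from the parallel sample titles. Doses and times were not given in the sources used here.

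Doxorubicin is an anthracycline that traps topoisomerase II on DNA, and the breaks that follow arrest many cultured cells in senescence, a lasting exit from the cell cycle in which cells stay alive and secrete cytokines. Isoliensinine is a bisbenzylisoquinoline alkaloid of lotus seed, a weakly basic compound. Several gene systems described below have well-known controls. Lysosomal genes share a promoter element bound by TFEB and its relatives, contractile genes of smooth muscle are driven by serum response factor with myocardin-related coactivators, metallothionein genes by a zinc-sensing factor, and immediate early genes by growth factor and stress signalling without new protein synthesis.

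The differences were small and ran in both directions. Of 12589 genes tested, 263 (2.09%) were called by edgeR's quasi-likelihood test at a Benjamini-Hochberg adjusted p under 0.05, 109 (0.866%) higher and 154 (1.22%) lower in D_I than in Dox cells. At an unadjusted p under 0.05 in this test there were 1908 of the 12589. The split moved with the scaling, to 120 higher and 106 lower with DESeq2's size factors and 142 higher and 118 lower with upper-quartile scaling. Called log2 fold changes, D_I over Dox, lay between -1.07 and 1.0. Past 1.5-fold were 17 genes and past 2-fold 3, which were Sprr1a and Cdh26 (lower) and Wnt6 (higher). In 260 of the 263 called genes the 3 D_I libraries lay wholly above or below the 3 Dox libraries, which was so for 9.32% (higher) and 10.2% (lower) of all tested genes. The median standard error of a log2 fold change was 0.155 and the median half-width of its 95% interval 0.322, and the smallest called change was 0.232.

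Sequencing depth, base composition and 1 library moved with the calls. D_I libraries held 15329101 to 16921525 counts and Dox libraries 20140802 to 23284077, so depth and group cannot be told apart. Thinning all 6 to equal depth gave 254 calls, 242 of them shared. Thinning evens only the sampling noise of the counts, so it cannot separate depth from group. Genes called higher had a median transcript GC content of 57.1% and genes called lower 47.4%, against 50% over all tested genes, and across genes the log2 fold change followed GC with a Spearman coefficient of 0.363 (genes are not independent replicates). With an offset that removes each library's GC trend, 133 genes passed, 58 higher (0.461%) and 75 lower (0.596%); 105 of the 133 were among the 263. The GC trend was not shared by the Dox libraries: each library's deviation from the mean followed GC with a coefficient of 0.05, 0.242 and 0.259 in D_I replicates 1 to 3, and of -0.308, 0.237 and -0.49 in Dox replicates 1 to 3. Without Dox replicate 2 the same test called 1298 genes, 650 higher and 648 lower. Without D_I replicates 1, 2 and 3 or Dox replicates 1 and 3 it called 65, 32, 33, 51 and 156. Counts of list members in these fits, given below, are to be set beside these totals, not beside the shares of the main fit. In a fit of all 18 libraries, whose other groups hold libraries that stand apart, no gene was called for the same contrast (556 of 13375, 4.16%, at an unadjusted p under 0.05). Calls of 21 genes held when any 1 of the 6 libraries was left out, among them Tgfb1, Tm7sf2, Uap1l1, Mt1, Egr1, Ier2 and Nr1h2 (higher) and Tpm1, Acta2, Hnrnpa1, Sprr1a and Cxcl12 (lower); the other called genes named by rule lost theirs in at least 1 such fit. For called genes described below, the adjusted p with the GC offset, or whether the gene passed with it, is also given.

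**Figure D1:**
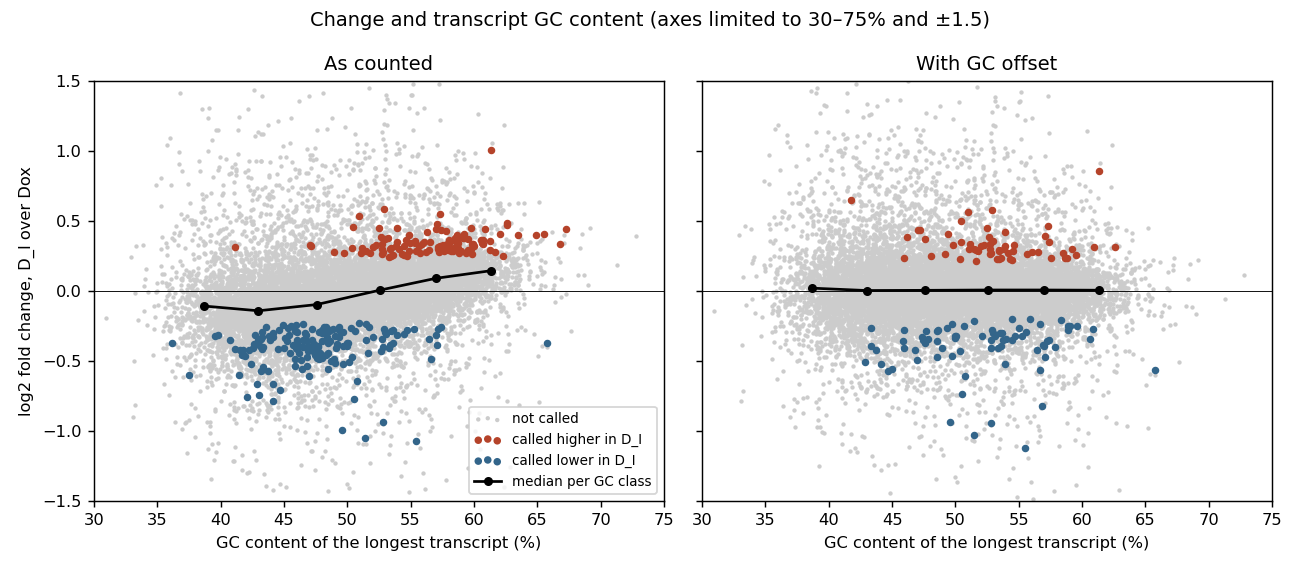
Log2 fold change (D_I over Dox, y axis) of each tested gene against the GC content of its transcript in percent (x axis), as counted and with the GC offset. As counted, medians run from -0.11 in genes of up to 40% GC to 0.15 in genes above 60%; with the offset the medians of all 6 GC classes are near 0.

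The cells were checked against markers of their type. Acta2, smooth muscle alpha-actin, was abundant in all 6 libraries, but Tagln, another defining marker, was near 0, at 0.13, 0.124 and 0.119 CPM (library-scaled read counts) in D_I and 0.857, 0.559 and 0.431 CPM in Dox cells. Myh11 stood at 5.19, 7.87 and 9.55 CPM in D_I and 9.47, 5.18 and 8.38 CPM in Dox cells. The 12 smooth muscle markers summed to 1930 to 2240 CPM in D_I and 3130 to 3580 CPM in Dox, with Acta2 the largest. The 12 fibroblast markers summed to more, 10000 to 10700 CPM in D_I and 9580 to 11400 CPM in Dox, with Fn1, Col1a1 and Col1a2 the largest. NK and T lymphocyte markers summed to 3.35 to 4.27 CPM in D_I and 1.82 to 3.51 CPM in Dox, with 10 of the 11 markers in the table under 1 CPM. Gut and liver transcripts, foreign to this line, summed to 218 to 279 CPM in D_I and 141 to 330 CPM in Dox. The 12 macrophage markers summed to 397 to 444 CPM in D_I and 393 to 434 CPM in Dox, 7 of them under 1 CPM. Most of that sum was Lgals3, at 339 to 371 CPM in D_I and 331 to 358 CPM in Dox. The 12 endothelial markers summed to 40.8 to 47.7 CPM in D_I and 38.8 to 45.6 CPM in Dox. None of the marker lists apart from smooth muscle had a called gene.

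Of the 30 gene lists examined, lysosomal genes had the highest share of calls. Of 49 tested genes for lysosomal enzymes and membrane proteins, 14 were higher in D_I cells (28.6%, against 0.866% of all tested genes), none was lower and 35 did not pass. Their median log2 fold change was 0.20, against -0.02 over all tested genes. Of the 49, 42 lay above 0 (45.7% of all tested genes did). In 26 all D_I libraries lay above all Dox libraries, which was so for 9.32% of all tested genes. With the GC offset 11 rose and the median was 0.22. The list's count was 0 or 1 without any 1 of the D_I libraries or Dox replicate 1. It was 8 without Dox replicate 3 (75 higher over all genes) and 25 without Dox replicate 2 (650 higher over all genes).

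The called lysosomal genes covered glycogen and glycan breakdown, acidification, calcium release and lipid hydrolysis. Gaa, the acid alpha-glucosidase that degrades lysosomal glycogen (chromosome 11, 119158713 to 119176280 in the coordinates of the deposited table, build not given in the sources used here), stood at 347, 381 and 358 CPM in D_I cells and 267, 303 and 269 CPM in Dox cells. All D_I values lay above all Dox values, a log2 change of 0.37 ± 0.07 (SE; edgeR quasi-likelihood, adjusted p = 0.0058; 0.0403 with the GC offset). Atp6v0d1 and Atp6v0a1, subunits of the membrane sector of the proton pump that acidifies the lysosome, were separate between groups as well. Atp6v0d1 stood at 726, 713 and 727 CPM in D_I and 576, 638 and 546 CPM in Dox cells, and Atp6v0a1 at 258, 253 and 275 CPM in D_I and 201, 220.3 and 206 CPM in Dox cells, with log2 changes of 0.30 and 0.33 (edgeR adjusted p = 0.0188 and 0.012; 0.015 and 0.00842 with the GC offset).

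Mcoln1, the lysosomal calcium channel, reached 111, 125 and 128 CPM in D_I and 96, 103 and 94 CPM in Dox cells. The gap between its lowest D_I and highest Dox library was small (log2 0.31, edgeR adjusted p = 0.0393; 0.0374 with the GC offset). Ctsa, cathepsin A, which protects and activates other lysosomal hydrolases, stood at 473, 481 and 477 CPM in D_I and 382, 432 and 385 CPM in Dox cells (log2 0.26, edgeR adjusted p = 0.0386; 0.0471 with the GC offset). Other called members were Psap, Fuca1, Lgmn, Smpd1, Man2b1, Naglu and Neu1, with log2 changes of 0.25 to 0.38. With the GC offset Fuca1, Lgmn and Man2b1 passed, and Psap, Smpd1, Naglu and Neu1 did not (edgeR adjusted p = 0.0567, 0.0719, 0.229 and 0.0505). These, Mcoln1 and Ctsa were named after their values were seen. Among members that did not pass, Lamp1 had a log2 difference of 0.19 (edgeR adjusted p = 0.0909), and Glb1, the beta-galactosidase assayed as a senescence stain, stood at 112, 115 and 99.4 CPM in D_I and 90.6, 97.5 and 93 CPM in Dox cells (log2 0.22, edgeR adjusted p = 0.167). Tfeb itself had a difference of 0.20 with a 95% interval half-width of 0.23 (edgeR adjusted p = 0.396), and Sqstm1, an autophagy receptor, one of 0.22 (adjusted p = 0.0676); neither passed, though Sqstm1 did under 8 of 21 other settings. Of 39 autophagy genes 1 was called by edgeR, higher (2.56%, against 0.866% of all tested genes), and none with the GC offset. DESeq2 called 7, all higher, where it called 323 higher over all genes. At an unadjusted edgeR p under 0.05, 10 were higher and 1 lower, against 1908 of all 12589 tested genes in either direction. Of the 39, 22 lay above 0 and 17 below, with a median of 0.02. In 12 of the 39 the D_I libraries lay wholly above the Dox libraries, against 9.32% of all tested genes. The edgeR call was Flcn, folliculin, a regulator of mTORC1 and TFEB at the lysosome, higher by 0.40 (edgeR adjusted p = 0.0309; 0.0601 with the GC offset).

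**Figure D2:**
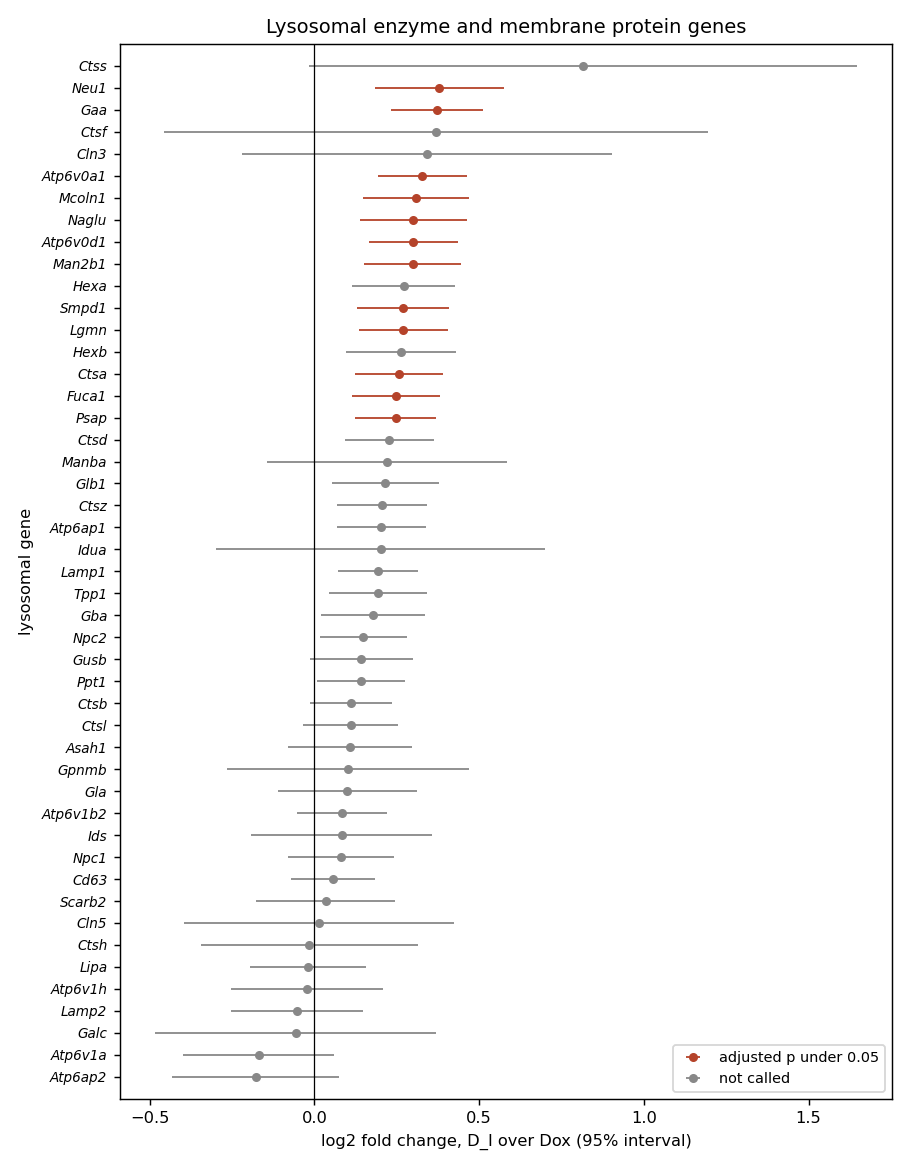
Log2 fold change, D_I over Dox, of 47 of the tested lysosomal genes with 95% intervals (x axis), ordered by size, with called genes marked. The 12 called genes drawn lie between 0.25 and 0.38, and 7 genes lie below 0.

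Promoters of 3 called lysosomal genes are shown because they hold the 8-base core of the element that TFEB binds. The windows are from RefSeq on GRCm38.p6, from 250 bases before the annotated start to 50 after, written 5′ to 3′ on the gene's strand, with each TCACGTGA in capitals: Mcoln1 is chr8:3500269-3500568 on the plus strand, Atp6v0d1 chr8:105566015-105566314 on the minus strand and Ctsa chr2:164833523-164833822 on the plus strand.
Mcoln1: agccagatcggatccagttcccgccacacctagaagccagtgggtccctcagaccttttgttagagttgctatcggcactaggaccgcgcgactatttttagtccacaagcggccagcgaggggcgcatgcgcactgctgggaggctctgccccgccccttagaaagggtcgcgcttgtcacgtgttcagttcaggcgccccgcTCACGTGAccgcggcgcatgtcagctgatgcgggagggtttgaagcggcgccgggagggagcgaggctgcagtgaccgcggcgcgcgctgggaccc
Atp6v0d1: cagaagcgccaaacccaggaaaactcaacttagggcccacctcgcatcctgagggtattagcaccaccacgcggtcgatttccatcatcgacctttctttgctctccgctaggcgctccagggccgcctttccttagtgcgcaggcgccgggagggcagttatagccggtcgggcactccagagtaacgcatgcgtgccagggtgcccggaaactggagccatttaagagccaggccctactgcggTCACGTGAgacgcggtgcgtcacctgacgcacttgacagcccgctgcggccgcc
Ctsa: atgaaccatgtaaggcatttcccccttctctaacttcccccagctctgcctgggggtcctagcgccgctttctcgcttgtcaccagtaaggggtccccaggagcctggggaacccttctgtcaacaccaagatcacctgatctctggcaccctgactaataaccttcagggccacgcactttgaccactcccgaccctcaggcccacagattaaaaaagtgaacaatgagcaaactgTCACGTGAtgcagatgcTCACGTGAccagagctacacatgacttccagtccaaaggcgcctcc
Counting the annotated start as 0, the core begins at -46 in Mcoln1, at -4 in Atp6v0d1 and at -13 and 4 in Ctsa. TCACGTGA reads the same on both strands and contains the E-box CACGTG, so every match of the longer motif is also a match of the shorter. Of 12 called lysosomal genes with a window, 3 (25%) held TCACGTGA and 6 (50%) held CACGTG. Among 9984 tested genes with a window the shares were 2.2% and 11.7%, among all 27025 genes with a window 1.12% and 8.09%, and among the 26 lysosomal genes that did not pass 15.4% and 30.8%. The 91 genes called higher that had a window held CACGTG in 24.2% of cases and the 119 called lower in 10.9%. A match describes the letters in a window and is not a bound site.

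Among the genes that changed most, metallothionein 1 rose. Mt1, which binds zinc and copper (chromosome 8, 94905710 to 94906955), stood at 353, 348 and 351 CPM in D_I cells and 231, 258 and 213 CPM in Dox cells. The D_I libraries were within a few CPM of each other and all above the Dox libraries, 1.5-fold (log2 0.58 ± 0.07, SE; edgeR adjusted p = 9.59e-05; 0.000175 with the GC offset). Its promoter is shown for its metal response elements, with the core TGCACNC or TGCGCNC in capitals where it occurs on the strand printed (RefSeq, GRCm38.p6, chr8:94178839-94179138, plus strand).
Mt1: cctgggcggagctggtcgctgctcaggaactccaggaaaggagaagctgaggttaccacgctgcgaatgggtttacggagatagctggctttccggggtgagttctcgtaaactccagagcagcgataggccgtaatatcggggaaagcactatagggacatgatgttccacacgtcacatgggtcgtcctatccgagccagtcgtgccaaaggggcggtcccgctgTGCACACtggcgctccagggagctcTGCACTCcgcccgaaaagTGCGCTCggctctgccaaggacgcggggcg
Searched on both strands, the core was present 3 times in this window, at -23, 2 and 20 from the start, but it is common: 40.9% of tested genes with a window held it, as did 35.2% of those called higher.

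Sterol synthesis had 2 called genes of 27, both higher (7.41%, against 0.866% of all tested genes). The count was 3 without Dox replicate 2 (650 higher over all genes) and 1 without any 1 of the other libraries. Tm7sf2, a sterol reductase of cholesterol synthesis, stood at 100, 109 and 107 CPM in D_I and 69.4, 77 and 71.9 CPM in Dox cells, with no overlap (log2 0.53 ± 0.08, SE; edgeR adjusted p = 0.00112; 0.00132 with the GC offset). Dhcr7, which catalyses a late step of cholesterol synthesis, stood at 175, 167 and 176 CPM in D_I and 142, 153 and 137 CPM in Dox cells (log2 0.27, edgeR adjusted p = 0.0459; 0.0449 with the GC offset). Hmgcs1, a standard target of the sterol sensor SREBP2, had a difference of 0.02 with an interval half-width of 0.49 and did not pass. The list's median was 0.04. Nr1h2, which encodes the oxysterol receptor LXR-beta, stood at 239, 229.8 and 233 CPM in D_I and 183, 181 and 182 CPM in Dox cells (log2 0.36, edgeR adjusted p = 0.00456; 0.092 with the GC offset). It was the 1 call of 14 genes of lipid efflux and LXR targets (7.14%, against 0.866% of all tested genes).

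Immediate early genes had 3 calls of 29, all higher (10.3%, against 0.866% of all tested genes), and the same number with the GC offset; 24 of the 29 lay above 0 (45.7% of all tested genes did), with a median of 0.12. Without Dox replicate 2 there were 5 calls (1298 over all genes) and without D_I replicate 3 there were 2 (33 over all genes). Egr1, a zinc-finger transcription factor, stood at 298, 309 and 367 CPM in D_I and 207, 231 and 227 CPM in Dox cells. All D_I values were above all Dox values, the change was 1.47-fold (log2 0.55 ± 0.08, SE), and the edgeR adjusted p was 0.000662 (0.00564 with the GC offset). Junb, an AP-1 subunit, stood at 113, 123 and 140 CPM in D_I and 87.6, 98.7 and 84.5 CPM in Dox cells (log2 0.47, edgeR adjusted p = 0.0069; 0.0448 with the GC offset). Ier2 stood at 183, 172 and 195 CPM in D_I and 131, 147 and 126 CPM in Dox cells (log2 0.44, edgeR adjusted p = 0.00348; 0.0245 with the GC offset). Neither Fos nor Jun passed, with log2 differences of 0.33 and 0.20 (adjusted p = 0.457 and 0.274).

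Some contractile smooth muscle genes, Acta2 among them, fell with isoliensinine. Of 23 tested, 5 fell (21.7%, against 1.22% of all tested genes), none rose and 18 did not pass; 18 lay below 0 (54.3% of all tested genes did) and the median was -0.27. With the GC offset 6 fell. The count was 8 without Dox replicate 2 (648 lower over all genes). It was 2 without D_I replicate 1, D_I replicate 2 or Dox replicate 1, and 4 or 5 without the others. In these bulk libraries fewer cells of a type and less RNA per cell cannot be told apart. Acta2 (chromosome 19, 34218490 to 34232990) stood at 889, 927 and 1093 CPM in D_I and 2168, 1835 and 1806 CPM in Dox cells. The highest D_I library was well under the lowest Dox library. Means were 970 ± 109 CPM in D_I and 1936 ± 202 CPM in Dox (SD, n = 3 each), 0.501-fold (log2 -0.998 ± 0.084, SE; edgeR adjusted p = 1.79e-05; 0.00337 with the GC offset).

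Tpm1, a tropomyosin that lies along actin filaments, stood at 288, 306 and 304 CPM in D_I and 465, 410.2 and 417 CPM in Dox cells (log2 -0.53 ± 0.07, SE; edgeR adjusted p = 0.000137). Myl9, the regulatory light chain of smooth muscle myosin, stood at 105, 126 and 148 CPM in D_I and 178, 185 and 166 CPM in Dox cells (log2 -0.48, edgeR adjusted p = 0.0191). The groups were separate in both genes, with the D_I libraries of Myl9 spread more widely. Cnn2, a calponin, and Flna, an actin crosslinker, fell by 0.38 and 0.32 on the log2 scale (edgeR adjusted p = 0.00616 and 0.00997). All 5 genes also passed with the GC offset. Several markers of the mature contractile state did not pass: Cnn1 stood at 4.67, 5.58 and 5.4 CPM in D_I and 11.5, 7.16 and 7.52 CPM in Dox (log2 -0.75, adjusted p = 0.115), and the differences of Cald1 and Myh11 were -0.70 (adjusted p = 0.0623) and -0.03. The coactivator gene Mrtfa and Srf differed by 0.00 and 0.13 and did not pass (adjusted p = 0.991 and 0.478). The CArG box, to which serum response factor binds, lay in the promoter window of 2 of the 5 genes called (40%), 5 of 21 tested contractile genes (23.8%) and 1.56% of tested genes.

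**Figure D3:**
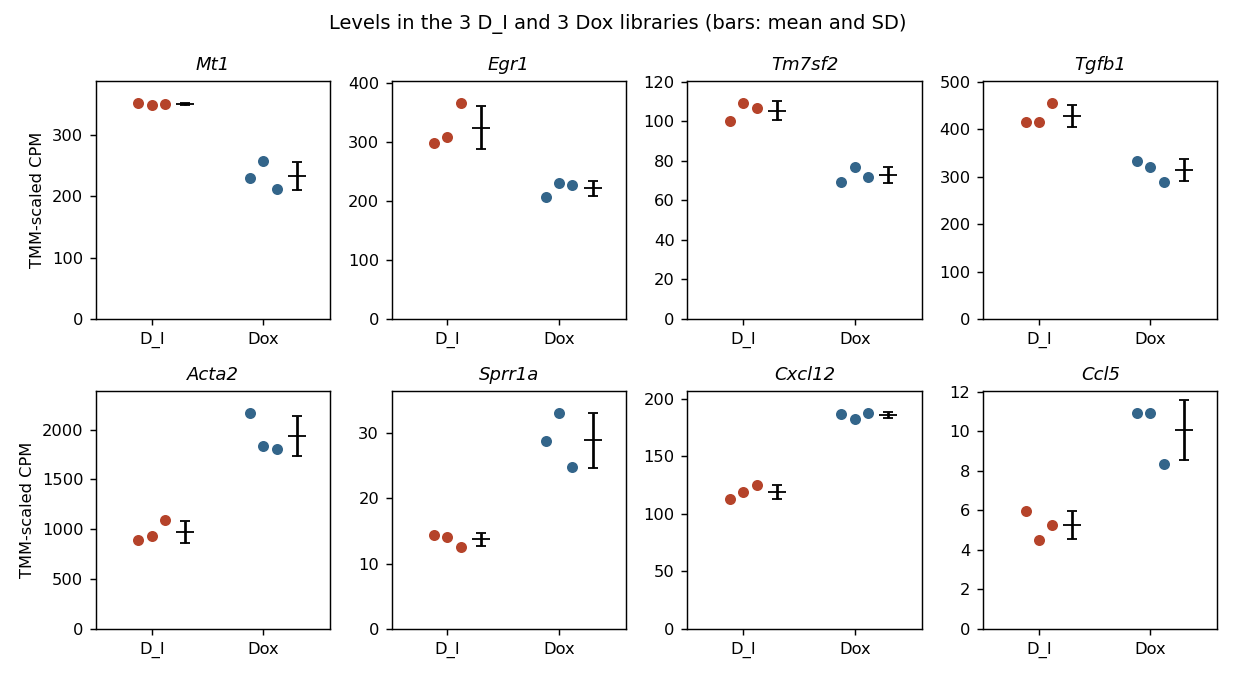
Level in each library (points; scaled CPM, y axis starting at 0) of 8 genes, D_I left of Dox, with the group mean ± SD beside them. Mt1, Egr1, Tm7sf2 and Tgfb1 are higher in all 3 D_I libraries and Acta2, Sprr1a, Cxcl12 and Ccl5 lower; Acta2 means are 970 and 1936 CPM.

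Of 31 tested secreted factors of senescence, 4 fell (12.9%, against 1.22% of all tested genes), 1 rose (3.23%, against 0.866%) and 26 did not pass. Without D_I replicates 1, 2 or 3 or Dox replicate 1 only 1 fell. It was 5 without Dox replicate 2 (648 lower over all genes). The 1 that rose was called in all 6 fits that left 1 library out. Cxcl12, the chemokine that binds CXCR4 (chromosome 6, 117145496 to 117158328), stood at 112, 119 and 125 CPM in D_I and 187, 183 and 188 CPM in Dox cells. The libraries of each group were close together and far apart between groups (log2 -0.65 ± 0.07, SE; edgeR adjusted p = 2.23e-05; 0.000175 with the GC offset). Ccl5, which attracts T and NK cells, was low in both groups, at 5.97, 4.52 and 5.28 CPM in D_I and 10.9, 10.9 and 8.33 CPM in Dox cells (log2 -0.94 ± 0.22, SE; edgeR adjusted p = 0.0314; 0.0399 with the GC offset). Its counts were 92, 73 and 89 reads in D_I and 255, 215 and 174 reads in Dox. Timp1, an inhibitor of metalloproteinases, and Spp1, osteopontin, fell by 0.34 and 0.33 (edgeR adjusted p = 0.011 and 0.0374); Timp1 passed with the GC offset (0.0107), and Spp1 did not (0.318).

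The factor that rose was Tgfb1, a growth factor with broad effects on matrix and on immune cells (chromosome 7, 25386427 to 25404502). It stood at 415, 416 and 456 CPM in D_I and 333, 321 and 289 CPM in Dox cells (log2 0.45 ± 0.07, SE; edgeR adjusted p = 0.00131; 0.00218 with the GC offset). Ltbp1, which holds latent TGF-beta in the matrix, went the other way, at 72.4, 73.2 and 68.4 CPM in D_I and 106, 79.4 and 102 CPM in Dox cells (log2 -0.43, edgeR adjusted p = 0.0245; log2 -0.43 and adjusted p = 0.0586 with the GC offset). Ccl2 and Cxcl1 had differences of 0.19 and -0.10 with interval half-widths of 0.71 and 1.22, too wide to give a direction. Il6 did not reach the count filter.

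Sprr1a, a small proline-rich protein of epithelial envelopes that is also induced in stressed heart muscle, had the largest fall (chromosome 3, 92391259 to 92393202). It stood at 14.5, 14.1 and 12.6 CPM in D_I and 28.9, 33.1 and 24.8 CPM in Dox cells, 0.475-fold (log2 -1.07 ± 0.15, SE; edgeR adjusted p = 0.000381; 0.000735 with the GC offset), with every D_I library under every Dox library. Wnt6, a Wnt ligand, stood at 9.08, 8.73 and 11.2 CPM in D_I and 4.59, 4.98 and 4.88 CPM in Dox cells (log2 1.0, edgeR adjusted p = 0.0206; 0.0468 with the GC offset), and Cdh26, a cadherin, at 3.96, 4.46 and 4.09 CPM in D_I and 6.6, 9.65 and 9.67 CPM in Dox cells (log2 -1.05, edgeR adjusted p = 0.0277; 0.0403 with the GC offset). The last 2 lie under the expression floor used to choose named genes and were picked after their values were seen.

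Apart from MHC class I, described next, no gene on the lists of NK-cell ligands passed. None of 8 tested activating ligands and none of 13 inhibitory and checkpoint ligands was called by edgeR's quasi-likelihood test or by DESeq2. At an unadjusted edgeR p under 0.05 there were 0 and 3, against 1908 of all 12589 tested genes. Pvr, a ligand of the activating receptor DNAM-1, had a difference of 0.14 with a half-width of 0.16, and Ulbp1 and Raet1e, ligands of NKG2D, differences of -0.004 and 0.10 with half-widths of 0.33 and 0.27. H60b did not reach the count filter. Cd274, the checkpoint ligand PD-L1, was near the detection floor, at 1.95, 1.67 and 1.78 CPM in D_I and 0.686, 1.32 and 0.622 CPM in Dox cells. Its 3 D_I libraries lay above the Dox libraries, and the difference did not pass (log2 1.04, half-width 1.07, edgeR adjusted p = 0.346). Cd47 and the death receptor Fas had differences of -0.04 and -0.01, with half-widths of 0.19 and 0.37.

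Of 23 tested genes of MHC class I presentation, the system that inhibits NK cells and shows peptides to T cells, 3 were higher (13%, against 0.866% of all tested genes) and none lower. The count was 5 without Dox replicate 2 (650 higher over all genes), 3 without Dox replicate 3, 1 without D_I replicate 3 and 0 without the others. As a whole the list did not lean 1 way. Of the 23, 12 lay above 0 and 11 below, with a median of 0.04, and DESeq2 called 4 higher and 1 lower. B2m, the light chain, stood at 2003, 2002 and 1912 CPM in D_I and 1554, 1716 and 1480 CPM in Dox cells (log2 0.32, edgeR adjusted p = 0.0136), and Tapbp, tapasin, changed by 0.32 (adjusted p = 0.0178). With the GC offset neither passed: B2m had a larger change and a larger error (log2 0.44 ± 0.14, SE; adjusted p = 0.259), and Tapbp a smaller change (0.23; adjusted p = 0.149). H2-K1 stood at 670, 687 and 652 CPM in D_I and 536, 605 and 533 CPM in Dox cells (log2 0.26, edgeR adjusted p = 0.0357; 0.043 with the offset), while H2-D1 did not pass (0.17, adjusted p = 0.322). H2 heavy-chain genes are near-identical in places, so reads may be split between them and these values are uncertain. Tap1, Tap2 and Nlrc5, the transporter genes and the transcriptional activator of the pathway, did not pass, nor did any of 47 interferon-stimulated genes. Of these 47, 6 had an unadjusted edgeR p under 0.05, all lower, against 1908 of all 12589 tested genes in either direction. DESeq2 called 1, also lower.

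The calls among mitosis genes were all lower, and none passed once the GC trend was removed. Of 35 tested, 6 were lower (17.1%, against 1.22% of all tested genes), none higher and 34 lay below 0 (54.3% of all tested genes did), with a median of -0.28; with the GC offset none was called (15 at an unadjusted p under 0.05, against 17 as counted) and the median was -0.17. The count was 16 without Dox replicate 2 (648 lower over all genes), 1 without Dox replicate 3 and 0 without any 1 of the others. Ccnb1, cyclin B1, stood at 198, 199 and 184 CPM in D_I and 233, 230 and 252 CPM in Dox cells (log2 -0.30, edgeR adjusted p = 0.0205; 0.219 with the offset). Cdk1, its kinase, stood at 149, 149 and 147 CPM in D_I and 178, 183 and 186 CPM in Dox cells (log2 -0.30, edgeR adjusted p = 0.0209; 0.129 with the offset). The others were Kif20a, Kif23, Kif2c and Anln, and the D_I and Dox libraries of Anln overlapped. On the scale of all 18 libraries Ccnb1 averaged 186 CPM in D_I, 226 CPM in Dox and 112 CPM in Blank. In the same order Cdk1 averaged 142, 173 and 93.6 CPM, Kif20a 164, 197 and 120 CPM, and Anln 105, 133 and 71.2 CPM. No test against Blank is given here. Mki67, a general proliferation marker, had a difference of -0.31 with a half-width of 0.78. Of 38 replication genes, 3 fell (7.89%, against 1.22% of all tested genes). They were Rrm1 and Rrm2, the subunits of ribonucleotide reductase, lower by 0.40 and 0.37, and Uhrf1, lower by 0.28 (edgeR adjusted p = 0.00166, 0.0187 and 0.0314). Of these, Rrm1 and Uhrf1 also passed with the offset. Without Dox replicate 2, 8 fell (648 over all genes), and without any 1 of the other libraries 0 to 2 did.

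Genes for the inhibitors that hold senescent cells in arrest did not pass, though Cdkn2b was separate between groups. Cdkn1a, which encodes p21, stood at 513, 443 and 451 CPM in D_I and 447, 555 and 440.2 CPM in Dox cells, with overlapping groups (log2 -0.04, half-width 0.18, edgeR adjusted p = 0.892). The differences were -0.15 for Cdkn2a and -0.29 for Cdkn2b (edgeR adjusted p = 0.494 and 0.168), and -0.11 for Trp53 and -0.17 for Mdm2 (0.467 and 0.697). Cdkn2b stood at 33.4, 35.6 and 35.3 CPM in D_I and 41.2, 45.9 and 40.3 CPM in Dox cells, every D_I library under every Dox library, and passed under 2 of 21 other settings. Of 35 p53 targets only Plk2, a kinase, was called (2.86%, against 1.22% of all tested genes), lower by 0.36 (edgeR adjusted p = 0.049; 0.168 with the GC offset). Lmnb1, the nuclear lamin whose loss marks senescence, stood at 54.1, 52.7 and 52.4 CPM in D_I and 71.7, 59.8 and 79.1 CPM in Dox cells (log2 -0.41, edgeR adjusted p = 0.0338; log2 -0.42 and adjusted p = 0.061 with the offset). Abcb1a, a drug efflux pump that exports doxorubicin, had a difference of -0.15 with a half-width of 0.88. None of 20 genes of drug efflux and doxorubicin metabolism was called by edgeR, and DESeq2 called 1. At an unadjusted edgeR p under 0.05 there were 3, against 1908 of all 12589 tested genes.

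Genes of RNA binding and translation also had calls. Hnrnpa1, a splicing regulator, stood at 77.2, 81 and 73.9 CPM in D_I and 127, 108 and 134 CPM in Dox cells (log2 -0.67, edgeR adjusted p = 0.000145; 0.00132 with the GC offset). Its groups were separate; it has processed pseudogenes that may share its reads. Of 47 cytosolic ribosomal protein genes, 5 fell (10.6%, against 1.22% of all tested genes). Below 0 lay 42 (54.3% of all tested genes did), and the median was -0.11. With the offset 6 fell. Without Dox replicate 2 it was 6 (648 lower over all genes), but 2 without Dox replicate 3 and 0 or 1 without the others. Those named by the rule, Rps27a, Rpl11, Rpl4 and Rps7, fell by 0.26 to 0.32, and of these Rpl11 also passed with the offset (edgeR adjusted p = 0.0119).

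Among stress and metabolic genes the calls were few and mixed. The shares to set beside them are 0.866% (higher) and 1.22% (lower) of all tested genes. Of 32 genes of the integrated stress response, Chac1, which degrades glutathione, and Trib3, a pseudokinase, rose by 0.44 and 0.29 (edgeR adjusted p = 0.00399 and 0.0393; 0.0217 and 0.155 with the GC offset). Of 35 antioxidant genes, Osgin1, Gstm1 and Gstm2 rose by 0.38, 0.26 and 0.28, while Txnrd1 and Txn1, thioredoxin reductase and thioredoxin, fell by 0.40 and 0.27 (edgeR adjusted p = 0.0142, 0.0379, 0.0437, 0.0204 and 0.0314); with the offset the pair of glutathione transferases passed and the other 3 did not. Of 17 heat shock and metallothionein genes, the chaperones Hspd1 and Hspa8 fell by 0.54 and 0.24 (edgeR adjusted p = 0.0205 and 0.0379), and Hspd1 also passed with the offset (0.0387). Of 26 glycolysis and hypoxia genes, Pgk1, Eno1 and Ldha fell by 0.29, 0.26 and 0.23 (edgeR adjusted p = 0.016, 0.0386 and 0.0459), all 3 also with the offset. Sdha, a subunit of respiratory complex II, fell by 0.44 (edgeR adjusted p = 0.00417; 0.0146 with the offset), the 1 call of 34 nuclear genes of oxidative phosphorylation. No gene was called by edgeR among 23 NF-kB targets, 12 death receptors and ligands, 24 BCL2 family and caspase genes, 22 genes of folding in the endoplasmic reticulum, 12 mitochondrially encoded genes and 14 histone genes. At an unadjusted edgeR p under 0.05 these lists held 4, 2, 2, 7, 5 and 3 genes, against 1908 of all 12589 tested genes. DESeq2 called 1 of the BCL2 list, 2 of the folding list and 2 of the mitochondrial list. The largest changes not yet given were Eva1b, C2cd2l, Gnpda1, Ypel3 and Uap1l1, higher by 0.45 to 0.49, and Serpinb6b, Plod2, Ugdh and Lars, lower by 0.61 to 0.79. With the offset Eva1b, Ypel3, Serpinb6b and Plod2 did not pass (edgeR adjusted p = 0.0798, 0.0827, 0.0567 and 0.0759) and the other 5 did.

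**Figure D4:**
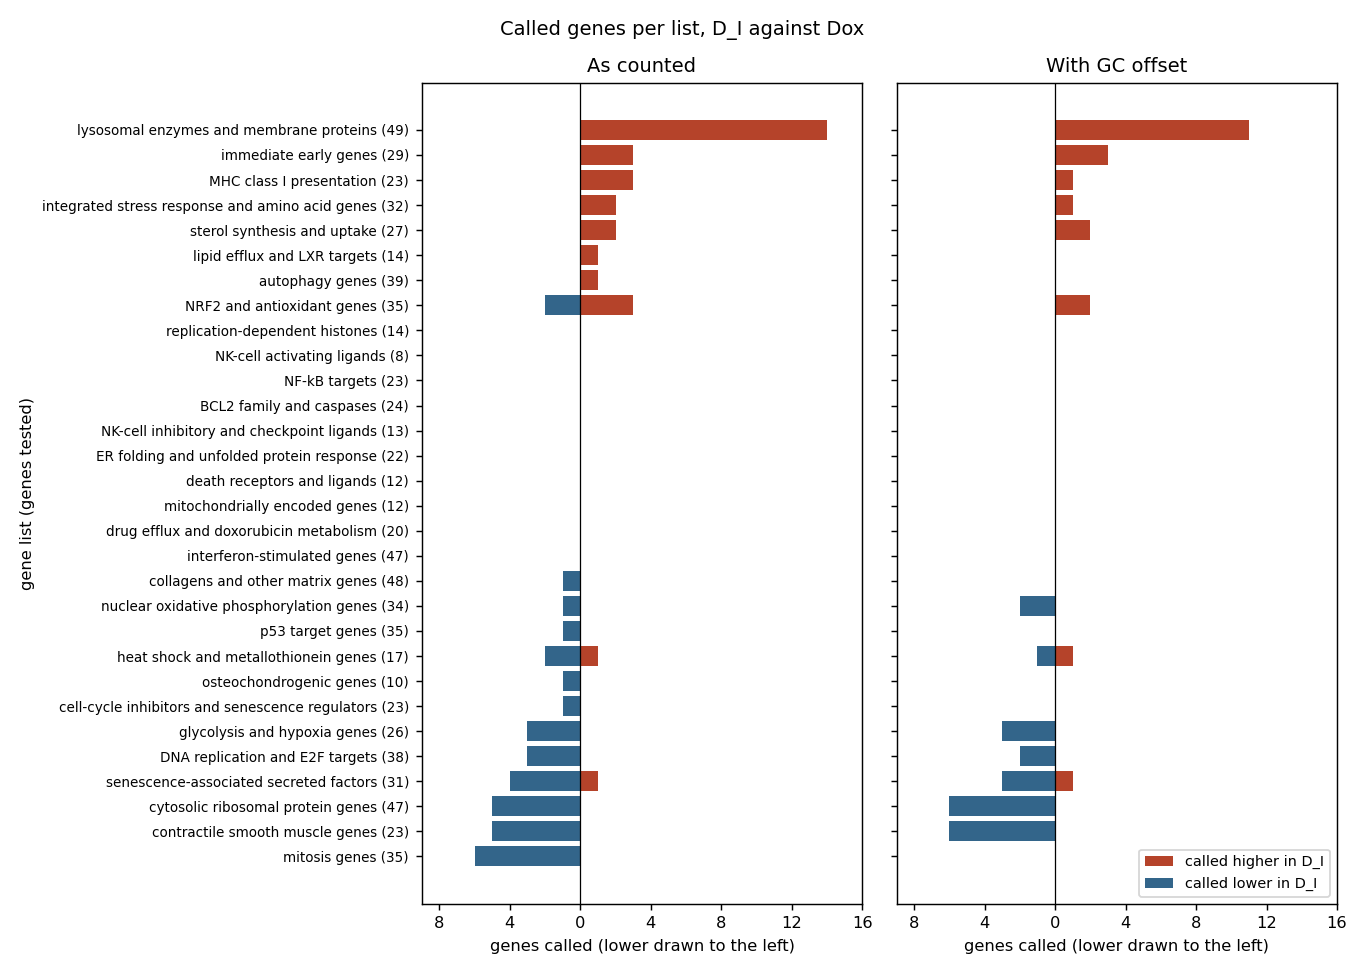
Number of called genes in each of the 30 gene lists (higher to the right, lower to the left of 0), as counted and with the GC offset. Lysosomal genes have 14 higher calls as counted and 11 with the offset; mitosis genes have 6 lower calls as counted and none with the offset.

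Isoliensinine was also given without an inducer and with hydrogen peroxide, and the effect was compared across the 3 backgrounds in 1 edgeR quasi-likelihood fit of all 18 libraries. No gene of 13375 passed for the effect with doxorubicin minus the effect without an inducer (522, 3.9%, at an unadjusted p under 0.05; DESeq2 called 3), or for the effect with doxorubicin minus the effect with peroxide (1054, 7.88%, at an unadjusted p under 0.05; DESeq2 called 4). Without Blank replicate 4 the difference from cells without an inducer was called for Pycr1, Fabp5, Tpm1 and Egr1, and without B_I replicate 3 for Egr1. With both libraries left out it was called for 8 genes, among them Acta2 (log2 -1.42, edgeR adjusted p = 0.000294), Tpm1 (-0.63, 0.0282), Psap (0.68, 0.0134), Tapbp (0.805, 0.0209) and Egr1 (edgeR adjusted p = 1.82e-05), with Id3, Pycr1 and Fabp5. Both were left out as libraries that stand apart, so these calls rest on a choice made on the data. Acta2 ran from 1122 to 3875 CPM in B_I and from 806 to 4514 CPM in Blank. With all 18 libraries its difference was -0.97 (edgeR unadjusted p = 0.264). Nor did any gene pass for B_I against Blank or H_I against H2O2 in this fit (640 and 915, or 4.79% and 6.84%, at an unadjusted p under 0.05). With a replicate block Egr1 was called in both tests of a difference (edgeR adjusted p = 0.000604 and 0.0101), and Pycr1 and Fabp5 in the test against cells without an inducer. Only Blank has a replicate numbered 4, so the block gives that library its own term and in effect leaves it out. With all 18 libraries, the count filter and no block, no gene named here passed by the edgeR test. With no filter on low counts Egr1 was called in both tests of a difference (edgeR adjusted p = 0.00175 and 0.0123).

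Egr1 had the smallest p in both tests of a difference. Its levels on the scale of all 18 libraries were 286 to 351 CPM in D_I and 195 to 220.4 CPM in Dox, 192 to 260.0 CPM in B_I and 262 to 316 CPM in Blank, and 191 to 209 CPM in H_I and 233 to 277 CPM in H2O2. Isoliensinine libraries were thus all above their partners with doxorubicin and all below them in the other backgrounds, with changes of 0.57, -0.45 and -0.36. The differences between these effects were 1.02 (unadjusted p = 4.67e-06; edgeR adjusted p = 0.0625) and 0.93 (unadjusted p = 1.65e-05; edgeR adjusted p = 0.22). DESeq2 called Egr1 in both tests.

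For the largest changes the other backgrounds gave values as follows. Acta2 averaged 930 ± 103 CPM in D_I and 1836 ± 185 CPM in Dox, but 2058 ± 1574 CPM in B_I and 2074 ± 2114 CPM in Blank, where 1 library each reached 3875 and 4514 CPM, and 2201 ± 300.3 CPM in H_I and 2517 ± 433 CPM in H2O2 (SD, n = 3 each). Mt1 averaged 336 CPM in D_I and 222 CPM in Dox, 1039 CPM in B_I and 1056 CPM in Blank, and 923 CPM in H_I and 907 CPM in H2O2, so its level in D_I was between those of Dox and of untreated cells. Sprr1a averaged 13.2 CPM in D_I and 27.4 CPM in Dox, 0.249 CPM in B_I and 0.39 CPM in Blank, and 2.23 CPM in H_I and 3.77 CPM in H2O2. Cxcl12 averaged 114 CPM in D_I and 176 CPM in Dox, 161 CPM in B_I and 174 CPM in Blank, and 160.1 CPM in H_I and 157 CPM in H2O2; D_I was the lowest of the 6 groups. Gaa averaged 347 CPM in D_I and 265 CPM in Dox, 465 CPM in B_I and 464 CPM in Blank, and 494 CPM in H_I and 464 CPM in H2O2.

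**Figure D5:**
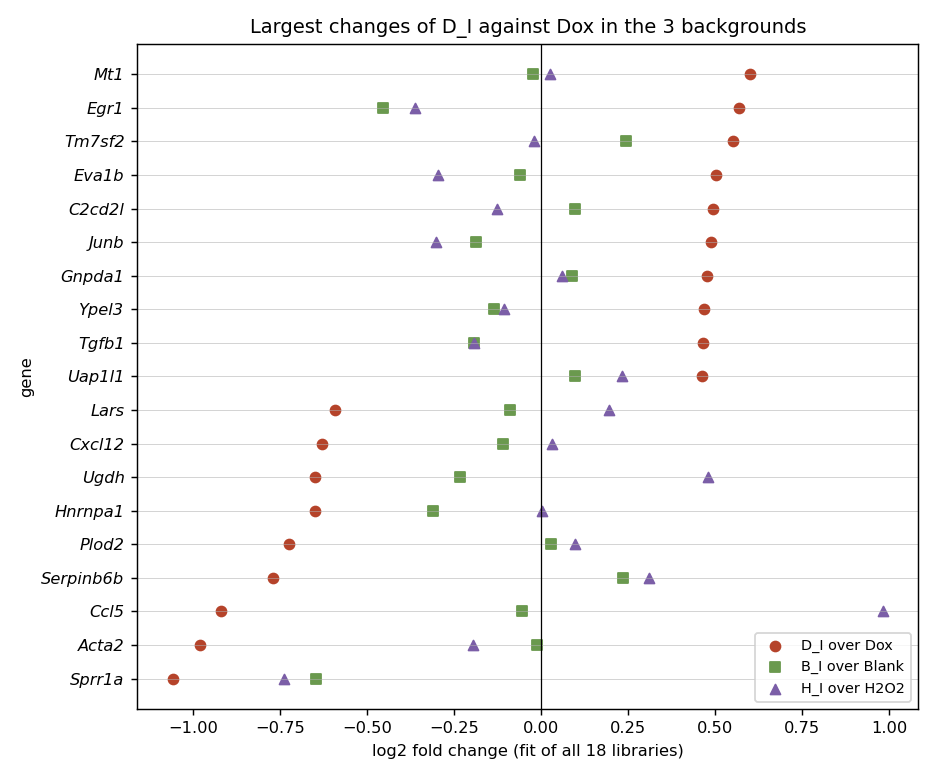
Log2 fold change with isoliensinine of 19 of the genes with the largest called changes, shown for D_I over Dox, B_I over Blank and H_I over H2O2 (x axis) from 1 fit of 18 libraries. The genes were chosen on D_I against Dox, so only the other 2 sets of points are free of that choice; Egr1 is at 0.57, -0.45 and -0.36.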

How the data were processed

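RNA from MOVAS cells was sequenced as poly-A libraries, per the labels' protocols, which do not state strand. The deposited table gives, per gene, the authors' read counts and FPKM in each library. Tools listed in the submitters' processing notes, with no role stated, are HTSeq 0.9.1, HISAT2 2.1.0 and fastp 0.22.0, and no genome build is given in the sources used here. Counts of the 6 libraries were filtered by expression (filterByExpr), scaled by TMM and tested with edgeR 4.0.16 in R 4.3.3 (robust quasi-likelihood, Benjamini-Hochberg adjusted p under 0.05), with no covariates. Rows without a symbol held 0.157% of counts. Levels are TMM-scaled read counts (CPM). Differences between backgrounds were contrasts in 1 fit of all 18 libraries. The deposited FPKM served for the limma 3.58.1 alternative and for the floor of 5 on named genes. Other alternatives used DESeq2 1.42.0, other scalings and filters, and, chosen after seeing the data, an offset for each library's trend on GC content (GENCODE vM21 transcripts, 99.87% of tested genes matched, span 0.3), equal depth, and a fit of the series without 4 libraries. Fits were tested on simulated data. Named genes were the 10 largest called changes each way with separate groups and at least 5 FPKM, up to 4 called members of each list by smallest adjusted p, and a set of genes given whether called or not. The members and lists were chosen with earlier results of these data known. Promoter windows came from RefSeq (GRCm38.p6). Replicates differed by more than sampling noise. Some genes that this rule would name are not reported here and are not drawn, but they stay in all counts.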

Additional observations from a re-analysis of the deposited data

Results flagged for a closer look

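For each gene below, all 3 isoliensinine libraries lay on one side of their partners with doxorubicin and on the other side in a second background. None of these differences passed an adjusted p under 0.05 in edgeR's quasi-likelihood fit of 18 libraries with the count filter and no block, and no explanation was weighed. The effect with doxorubicin minus the effect without an inducer was 1.02 for Egr1 (edgeR adjusted p = 0.0625) and 0.674 for Junb (0.812), on the log2 scale. Junb stood at 108 to 134 CPM in D_I and 79.9 to 94.3 CPM in Dox, and at 78.8 to 93.1 CPM in B_I and 95.5 to 99.5 CPM in Blank.

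The effect with doxorubicin minus the effect with peroxide was 0.931 for Egr1 (edgeR adjusted p = 0.22) and -1.9 for Ccl5 (0.483). Ccl5 stood at 4.34 to 5.73 CPM in D_I and 7.88 to 10.4 CPM in Dox, and at 1.54 to 2.29 CPM in H_I and 0.744 to 1.17 CPM in H2O2. The same difference was 1.22 for Osgin1, 0.583 for Trib3, 0.533 for Tapbp, 0.348 for Tfeb and 0.28 for Sqstm1, and -0.795 for Cdkn2b and -0.488 for Txn1 (edgeR adjusted p between 0.483 and 0.668). Cdkn2b, Tfeb and Sqstm1 were not called for D_I against Dox.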

How the results depend on the processing

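The number of genes called for D_I against Dox was 263 (109 higher, 154 lower). Calls numbered 587 (323 higher, 264 lower) with DESeq2, 501 (203 and 298) with no filter and 43 (17 and 26) at an adjusted p under 0.01. A test of whether the change exceeded 1.2-fold (edgeR's glmTreat) called 6 (1 and 5). That is not the number of called genes whose estimate is past 1.2-fold. Calls numbered 133 (58 and 75) with the GC offset and 671 (353 and 318) with the offset and without Dox replicate 2. The fit of all 18 libraries gave 0 (0 and 0). Leaving out 1 library gave 32 to 1298 calls, 9 to 650 higher and 19 to 648 lower. Called higher and lower were 120 and 106 with RLE scaling, 142 and 118 with upper-quartile scaling, 132 and 100 with limma on log2(FPKM + 1), 128 and 98 with a pseudocount of 0.1, and 92 and 92 in the fit without 4 libraries of other groups. Of the 6 genes called by the test against 1.2-fold, Mt1 (higher) and Acta2, Hnrnpa1, Sprr1a and Cxcl12 (lower) were the most stable. They kept their calls under all 21 settings except the fit of all 18 libraries. In all 6 leave-one-out fits 21 genes were called.

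Libraries of the same number correlated by 0.0073, 0.078 and -0.11 after group means were removed. These values gave no sign that the numbers pair them, but so few libraries cannot exclude it. A replicate block gave 204 calls, 193 of them shared. For the difference in effect with doxorubicin and without an inducer, 0 calls became 3 with DESeq2, 1 with no filter, 3 with the replicate block, 0 to 4 with 1 library left out and 8 without Blank replicate 4 and B_I replicate 3. For the difference with peroxide, 0 became 4 with DESeq2, 1 with no filter and 1 with the replicate block, and was 0 with any 1 library left out. The causes were not tested.

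No named called gene reversed. Of the named genes that did not pass, 8 changed sign. Ulbp1 was 0.0152 in 18 libraries, 0.0171 with DESeq2, 0.0163 with RLE, 0.00726 with upper quartile, 0.00655 unfiltered, 0.0134 and 0.0191 with limma at pseudocounts of 1 and 0.1, 0.0132 with the block, 0.152 with the GC offset, 0.0642 with the offset without Dox replicate 2, 0.0292 thinned, 0.00895 without 4 libraries and -0.158 to 0.164 leave-one-out. Fas was 0.00445 in 18 libraries, 0.007 with RLE, 0.00401 with upper quartile, 0.116 with the offset, 0.311 with the offset without Dox replicate 2, 0.00226 thinned and -0.1 to 0.114 leave-one-out. With the offset, Cxcl1 was 0.05, Cd47 0.0943 and Abcb1a 0.0122; with the offset and without Dox replicate 2, Cd47 was 0.189 and Cdkn1a 0.0173; thinned, Cxcl1 was 0.0677. With 1 library left out, the change ran over -0.341 to 0.24 for Cxcl1, -0.471 to 0.217 for Abcb1a, -0.093 to 0.0984 for Cdkn1a, -0.203 to 0.241 for Hmgcs1 and -0.112 to 0.397 for Ccl2.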

Other observations

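Some gene families, picked after their values were seen, had several called members. All 9 tested subunits of the CCT chaperonin, which folds actin and tubulin, lay below 0 (54.3% of all tested genes did), and 4 fell, against 1.22% of all tested genes (Cct3, Cct4, Cct8 and Cct6a; 2 with the GC offset). Cct6a stood at 119, 136 and 121 CPM in D_I and 169, 161 and 178 CPM in Dox (log2 -0.44, edgeR adjusted p = 0.00372; 0.0242 with the offset). All 20 hnRNP genes lay below 0 (54.3% of all tested genes did), and 3 fell, against 1.22% of all tested genes (1 with the offset). Of 13 importins, which carry proteins into the nucleus, 3 fell, against 1.22% of all tested genes (2 with the offset). Among them Kpnb1 stood at 191, 185 and 174 CPM in D_I and 247, 229 and 272 CPM in Dox (log2 -0.44, edgeR adjusted p = 0.00195; 0.00643 with the offset). The tropomyosin Tpm4 fell by 0.54 (edgeR adjusted p = 0.00481, and 0.00426 with the offset). The calponin Cnn3 fell by 0.37 (edgeR adjusted p = 0.00572, and 0.0399 with the offset).

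Of 20 proton pump subunit genes, 5 rose, against 0.866% of all tested genes: Tcirg1, Atp6v0d1, Atp6v0a1, Atp6v0c and Atp6v0b, all of the membrane sector. With the GC offset 4 subunit genes were called higher. Glmp, a lysosomal membrane glycoprotein, stood at 306, 306 and 310 CPM in D_I and 231, 255 and 220.3 CPM in Dox (log2 0.38, edgeR adjusted p = 0.00399; 0.00314 with the offset). Grn, progranulin, stood at 503, 552 and 544 CPM in D_I and 411, 443 and 404 CPM in Dox (log2 0.35, edgeR adjusted p = 0.00662; 0.0135 with the offset).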
